A study of Homo sapiens with 9 samples.

Results

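The V1 sector is the cytosolic motor of the vacuolar proton pump, the V-ATPase, and 8 genes that encode its subunits in most human tissues are described: ATP6V1A, ATP6V1B2, ATP6V1C1, ATP6V1D, ATP6V1E1, ATP6V1F, ATP6V1G1 and ATP6V1H. These members were selected by gene name, as the rows whose Ensembl identifier carries 1 of the 8 symbols in GENCODE 29, and they are 8 of 58735 genes in the table. No measured value decides which subunit is in the list, but the family was picked for description with earlier results of these libraries known, among them rises of lysosome and autophagy transcripts with the SUDS3 siRNA. The counts of members that rose or fell are therefore a description of these libraries. All 8 passed the filter on low counts and were among the 18088 genes tested.

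RNA was sequenced from HEK293T, an established line of human embryonic kidney origin that expresses SV40 large T antigen, to study PHF12 and SUDS3, which are both subunits of SIN3 histone deacetylase complexes. The groups are cells given an siRNA against PHF12, cells given an siRNA against SUDS3 and cells given a negative control siRNA, each with 3 libraries. Every culture, controls included, received 10 nM siRNA in the lipid reagent Lipofectamine RNAiMAX for 36 h, and each target was addressed with 1 siRNA, so an effect of the target and another effect of that siRNA cannot be told apart. The labels do not say whether the libraries of a group came from separate cultures, so every p-value measures the spread between these libraries, which may be technical.

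V-ATPase uses ATP to drive protons into lysosomes, endosomes, the Golgi and secretory vesicles, and the acid it makes there is needed by lysosomal enzymes and for receptor recycling. In V1, alternating A and B subunits form the catalytic ring that hydrolyses ATP, D and F form the central rotor, and pairs of E and G form the outer stalks that hold the ring still with the help of C and H. V1 can detach from the membrane sector V0 and rejoin it, which switches the pump off and on. On the lysosome the pump also takes part in amino acid sensing through the Ragulator complex and the Rag GTPases, and many of its genes are known targets of the transcription factor TFEB.

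Library totals ran from 37962926 to 50946148 counts, and the members held 2096 to 11100 counts in a library. Of the counts above 0, 96.1% are multiples of 4, so these numbers may stand for fewer fragments. Levels are given as CPM, counts scaled by the TMM method to 1000000 per library. PHF12 stood at 27.9, 24.5 and 28.3 CPM with its siRNA, against 50.3, 50.5 and 48.8 CPM in controls, and SUDS3 at 21.1, 22.3 and 22.9 CPM with its siRNA, against 107.5, 114.0 and 111.8 CPM in controls. SUDS3 also fell with the PHF12 siRNA (log2 fold change -0.46, edgeR adjusted p = 6.83e-10), and PHF12 rose with the SUDS3 siRNA (0.30, edgeR adjusted p = 7.19e-05). The 6 genes checked as marks of HEK293T cells were detected in every library, although PAX2 lay only between 0.951 and 2.32 CPM. Of 8 markers of blood, endothelial, stromal and liver cells, 7 stayed below 1 CPM in all libraries. The exception was the blood marker CD14, at 0.686 to 1.75 CPM, a range that overlaps that of PAX2. In bulk RNA, fewer cells of a type and less RNA per cell cannot be told apart.

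With the PHF12 siRNA the V1 transcripts moved apart: the catalytic subunit ATP6V1A fell to 34.5% of its control level, while the rotor subunit ATP6V1D and the stator subunits ATP6V1G1, ATP6V1C1 and ATP6V1E1 rose. With the SUDS3 siRNA, 7 of the 8 rose by smaller amounts and ATP6V1G1 fell. Log2 fold changes of the members spanned -1.53 to 0.84 in the PHF12 siRNA comparison and -0.22 to 0.47 in that of SUDS3. Both comparisons use the same 3 control libraries. Of 24 comparisons of a member between groups, 21 passed an adjusted p of 0.05. Over all tested genes, 14.8% rose and 17.1% fell with the PHF12 siRNA, and 19.6% rose and 19.2% fell with the SUDS3 siRNA. Between the siRNAs 22.7% were higher and 21.1% lower with the SUDS3 siRNA. These shares were not matched to the level of the members. The tested genes include some near 0 counts, where a change passes less easily than in the members. In all 21 member comparisons that passed, the libraries of the compared groups did not overlap. Non-overlap was not counted over all tested genes, so it adds nothing to these calls.

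**Figure D1:**
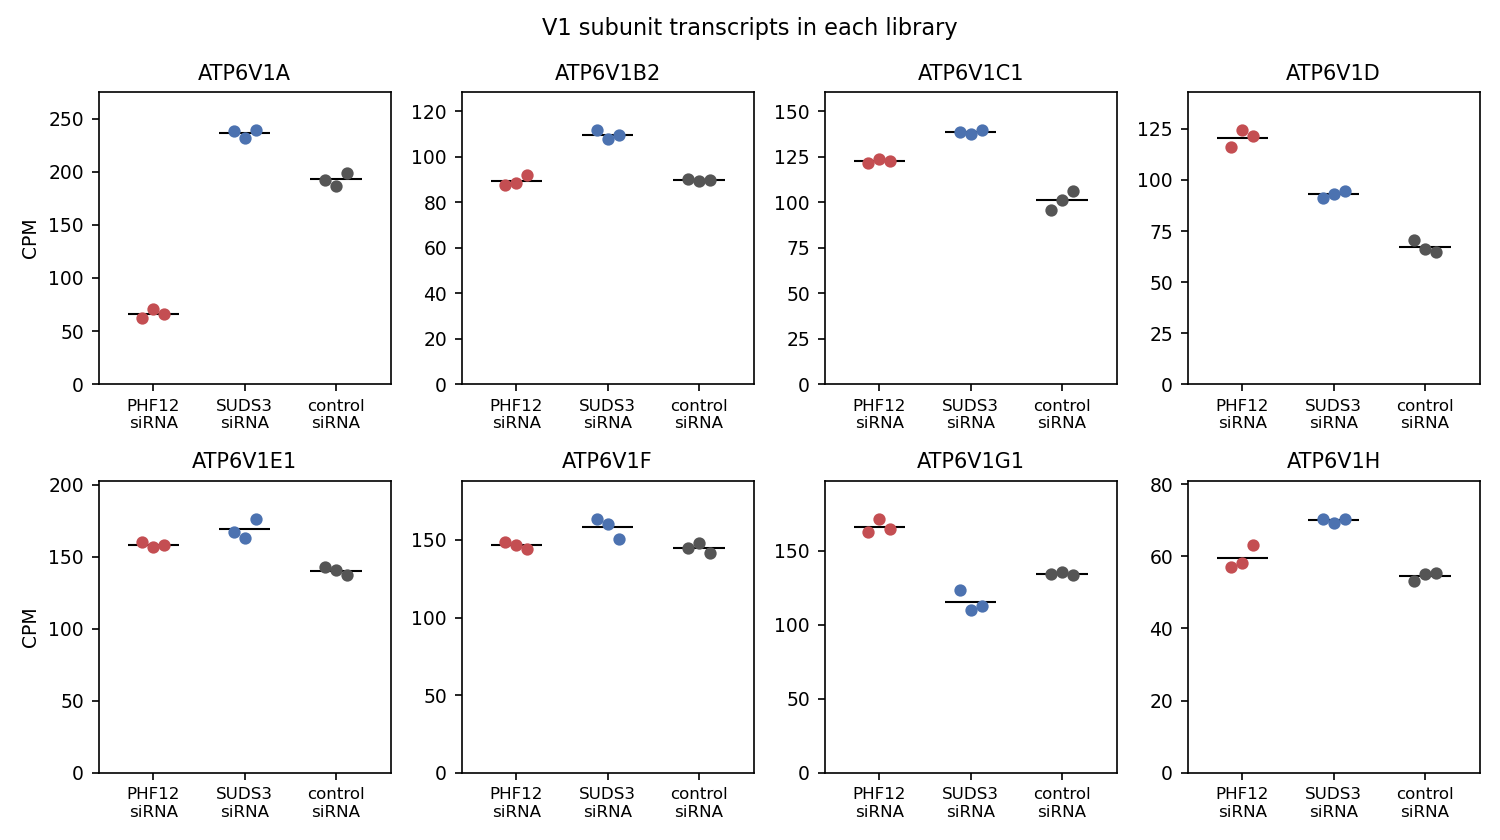
Each panel plots 1 V1 subunit gene in CPM on an axis from 0, with a point for each of the 9 libraries and a line at the mean of each group. ATP6V1A lies between 62.4 and 70.6 CPM in the PHF12 siRNA libraries, below every other library, while ATP6V1D is higher in both siRNA groups than in controls.

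The comparison of PHF12 siRNA with control siRNA addresses what the PHF12 siRNA does to transcript levels. Among the V1 members 4 rose, 1 fell and 3 did not pass, where 14.8% of all tested genes rose and 17.1% fell. Their median log2 fold change was 0.15, beside -0.00 for all tested genes.

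The catalytic subunit ATP6V1A (ENSG00000114573, GRCh38 chromosome 3, 113747019 to 113812056) carries the site of ATP hydrolysis. It stood at 62.4, 70.6 and 66.5 CPM with the PHF12 siRNA, against 192.5, 187.0 and 198.8 CPM in controls. The groups lay far apart, with all 3 PHF12 siRNA libraries below all 3 controls. Its log2 fold change was -1.53 (SE 0.04, 95% interval -1.62 to -1.45, edgeR adjusted p = 2.69e-26), and 145 of the 18088 tested genes fell as far or further. The partner ATP6V1B2, the non-catalytic subunit of the ring, stood at 87.3, 88.5 and 92.1 CPM with the PHF12 siRNA, against 90.0, 89.2 and 89.5 CPM in controls. These libraries overlapped, and the difference did not pass (-0.00, 95% interval -0.09 to 0.08, edgeR adjusted p = 0.954).

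A short site in the ATP6V1A transcript is shown because an earlier scan of these same PHF12 siRNA fold changes had picked its hexamer as marking genes that fell. The longest GENCODE 29 3' UTR of ATP6V1A holds AATCAC 1 time, in 2629 bases, at position 1128, and those of the other 7 members do not hold it. The site is on the plus strand at chr3:113810543-113810572 of GRCh38, and capitals mark the hexamer.
ATP6V1A 3' UTR site: gacacttaaaacAATCACtgaaaacttgat
AATCAC was in the longest 3' UTR of 30.8% of 13748 tested genes that have a 3' UTR. The median log2 fold change with the PHF12 siRNA was -0.12 for genes that hold it and 0.04 for the others. With the SUDS3 siRNA these medians were -0.019 and 0.002. Since the hexamer came from the same fold changes, the match is a description, and its part in the fall of ATP6V1A was not tested.

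The rotor subunit ATP6V1D (ENSG00000100554, chromosome 14, 67294371 to 67360265), which turns inside the catalytic ring, rose furthest. It stood at 116.2, 124.4 and 121.5 CPM with the PHF12 siRNA, against 70.4, 66.4 and 64.8 CPM in controls, with no overlap. Its log2 fold change was 0.84 (SE 0.05, 95% interval 0.75 to 0.94, edgeR adjusted p = 1.54e-17), and 658 tested genes rose as far or further. Its annotated exons share 269 of 4251 bases with EIF2S1 on the opposite strand and no source used here gives the strand setting of the counting. EIF2S1 itself rose with the PHF12 siRNA, by 0.22 (edgeR adjusted p = 8.72e-05), and did not pass with the SUDS3 siRNA (-0.03, edgeR adjusted p = 0.654). The part of shared reads in the rise of ATP6V1D was not tested. ATP6V1F, the other rotor subunit, stood at 148.4, 146.7 and 144.4 CPM with the PHF12 siRNA, against 144.6, 148.2 and 141.7 CPM in controls, and did not pass (0.02, 95% interval -0.06 to 0.09, edgeR adjusted p = 0.811).

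Of the stator subunits, ATP6V1G1 (ENSG00000136888, chromosome 9, 114587746 to 114598373), which pairs with E in the outer stalk, stood at 162.8, 171.7 and 164.6 CPM with the PHF12 siRNA, against 134.1, 135.8 and 133.8 CPM in controls. The control libraries were close together and below every PHF12 siRNA library, and the log2 fold change was 0.31 (SE 0.04, edgeR adjusted p = 1.6e-07). ATP6V1E1 (ENSG00000131100, chromosome 22, 17592136 to 17628818) stood at 159.9, 156.5 and 158.3 CPM with the PHF12 siRNA, against 142.8, 140.6 and 137.5 CPM in controls, a smaller rise of 0.17 (edgeR adjusted p = 0.000356). ATP6V1C1, which links the stalks and is released when V1 detaches, rose by 0.28 (edgeR adjusted p = 8.89e-07), with 121.6, 123.8 and 122.5 CPM against 95.7, 101.4 and 105.9 CPM in controls. ATP6V1H, which keeps detached V1 from hydrolysing ATP, stood at 57.0, 58.1 and 63.2 CPM with the PHF12 siRNA, against 53.3, 55.1 and 55.3 CPM in controls. Every PHF12 siRNA library was above every control, but the difference of 0.12 did not pass (95% interval 0.02 to 0.23, edgeR adjusted p = 0.0695), and it passed under 5 of 20 alternative settings, 1 of them without PHF12 siRNA replicate 1 (0.15, edgeR adjusted p = 0.0431).

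The comparison of SUDS3 siRNA with control siRNA puts that question for the SUDS3 siRNA. Of the members 7 rose and 1 fell in edgeR, where 19.6% of all tested genes rose and 19.2% fell. The median log2 fold change of the 8 was 0.29, beside -0.02 for all tested genes.

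Both subunits of the catalytic ring rose by the same amount within their errors. ATP6V1A stood at 238.5, 231.5 and 239.1 CPM with the SUDS3 siRNA, against 192.5, 187.0 and 198.8 CPM in controls (log2 fold change 0.29, SE 0.04, edgeR adjusted p = 1.38e-07). ATP6V1B2 stood at 111.6, 107.6 and 109.7 CPM with the SUDS3 siRNA, against 90.0, 89.2 and 89.5 CPM in controls (0.29, SE 0.04, edgeR adjusted p = 7.01e-07). In neither gene did a SUDS3 siRNA library reach down to a control.

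The largest rises were in a rotor and a stator subunit. ATP6V1D stood at 91.0, 93.0 and 94.6 CPM with the SUDS3 siRNA, against 70.4, 66.4 and 64.8 CPM in controls (log2 fold change 0.47, SE 0.05, edgeR adjusted p = 1.75e-10). ATP6V1C1 stood at 138.8, 137.6 and 139.6 CPM, against 95.7, 101.4 and 105.9 CPM in controls (0.46, SE 0.04, edgeR adjusted p = 2.24e-11). For both genes the SUDS3 siRNA libraries were close together and well above the controls. ATP6V1H rose by 0.36 (edgeR adjusted p = 6.31e-07), with 70.4, 69.2 and 70.3 CPM with the SUDS3 siRNA against 53.3, 55.1 and 55.3 CPM in controls. ATP6V1E1 rose by 0.27 (edgeR adjusted p = 3.7e-07), with 167.4, 163.0 and 176.4 CPM against 142.8, 140.6 and 137.5 CPM in controls. The rotor subunit ATP6V1F had the smallest change that passed, 0.13 (edgeR adjusted p = 0.00708), with 163.7, 160.5 and 150.5 CPM with the SUDS3 siRNA against 144.6, 148.2 and 141.7 CPM in controls. Without SUDS3 siRNA replicate 1 its difference was 0.10 and did not pass (edgeR adjusted p = 0.074).

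ATP6V1G1 was the exception in direction. It stood at 123.4, 109.95 and 112.5 CPM with the SUDS3 siRNA, against 134.1, 135.8 and 133.8 CPM in controls, and every SUDS3 siRNA library was lower than every control. The log2 fold change was -0.22 (SE 0.04, 95% interval -0.31 to -0.14, edgeR adjusted p = 3.43e-05), and it remained negative and passed in all 20 alternative settings.

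**Figure D2:**
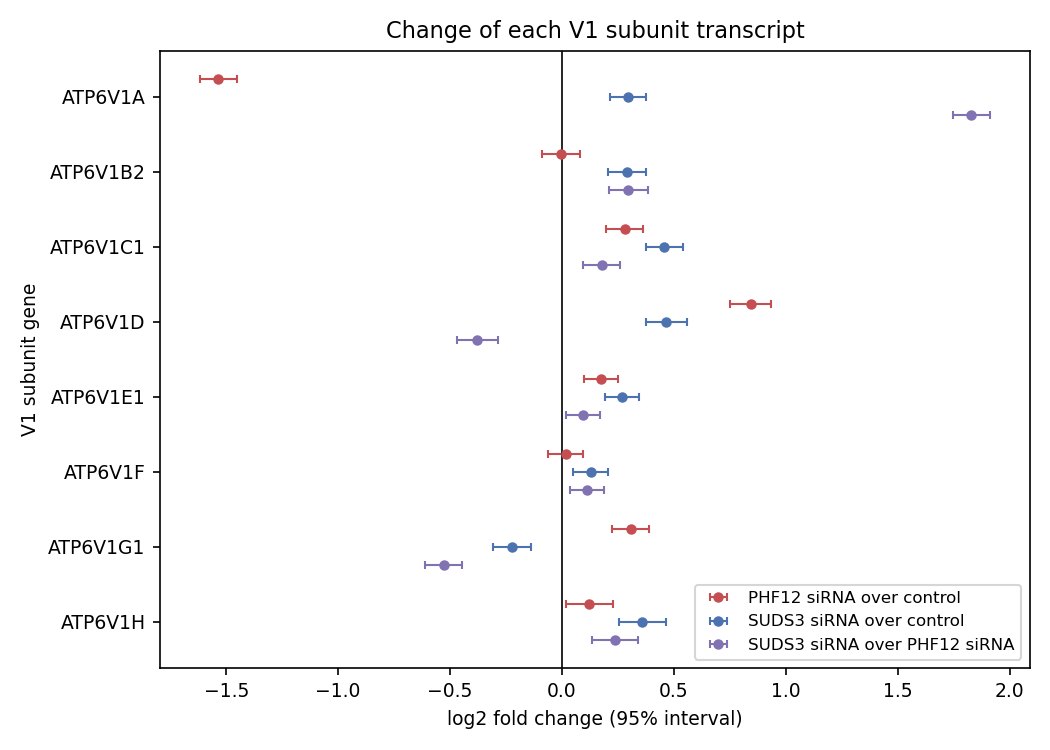
Points show the log2 fold change of each V1 subunit gene in the 3 comparisons between siRNA groups and bars its 95% interval. ATP6V1A lies at -1.53 for PHF12 siRNA over control and at 0.29 for SUDS3 siRNA over control, and ATP6V1G1 lies at 0.31 and -0.22 in the same comparisons.

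Sequences near the start of 2 members are shown because ATP6V1G1 went the other way from the rest of the family with the SUDS3 siRNA, and ATP6V1D rose furthest with the PHF12 siRNA. The windows run from 250 bases before to 50 bases after the RefSeq start on GRCh38.p14, that of ATP6V1G1 at chr9:114587519-114587818 on the plus strand and that of ATP6V1D at chr14:67359755-67360054 on the minus strand. Capitals mark a palindrome of 10 letters that lies 60 to 51 bases before the start of ATP6V1G1.
ATP6V1G1: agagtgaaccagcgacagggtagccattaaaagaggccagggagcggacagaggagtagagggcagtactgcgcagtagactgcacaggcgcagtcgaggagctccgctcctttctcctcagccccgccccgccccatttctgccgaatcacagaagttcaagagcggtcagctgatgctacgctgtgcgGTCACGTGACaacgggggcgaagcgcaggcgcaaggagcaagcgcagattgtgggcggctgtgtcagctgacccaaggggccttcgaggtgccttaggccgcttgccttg
ATP6V1D: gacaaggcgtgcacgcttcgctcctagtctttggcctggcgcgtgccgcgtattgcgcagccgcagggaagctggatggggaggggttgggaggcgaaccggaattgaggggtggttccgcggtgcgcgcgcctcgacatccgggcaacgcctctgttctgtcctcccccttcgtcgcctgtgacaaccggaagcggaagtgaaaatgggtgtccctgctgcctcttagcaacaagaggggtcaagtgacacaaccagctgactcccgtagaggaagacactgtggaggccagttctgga
Its centre CACGTG is the E-box core, the letters that TFEB and its relatives are known to bind. Of 4 members with 5 windows in the table, 1 holds CACGTG on either strand, ATP6V1G1, beside 7.26% of all 35116 windows. TCACGTGA, which contains CACGTG, is in the same member and in 0.98% of windows. GGGCGG, the letters of GC boxes, is in 2 of the 4 members (ATP6V1G1 and ATP6V1E1) and in 45% of windows, and CCAAT is in 1 (ATP6V1E1) and in 34.6% of windows. The ATP6V1D window holds none of the 4 words. These matches describe letters, and no binding was measured.

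The hexamer TACATT, picked by an earlier scan of the SUDS3 siRNA fold changes as marking genes that fell, was in the longest 3' UTR of 41% of 13748 tested genes. Their median log2 fold change with the SUDS3 siRNA was -0.06, beside 0.04 for genes without it. With the PHF12 siRNA these medians differed in the same direction, at -0.032 and 0.021. TACATT occurs 1 time each in ATP6V1A and ATP6V1G1 and 2 times each in ATP6V1B2 and ATP6V1C1. ATP6V1G1 was the member that fell, and the other 3 holders rose by 0.29 to 0.46. The sites of ATP6V1G1, at position 75 of 630 bases (chr9:114597806-114597835, plus strand), and of ATP6V1A, at position 242 (chr3:113809657-113809686, plus strand), are shown with the hexamer in capitals.
ATP6V1G1 3' UTR site: cacagctctagtTACATTcttatgatatgg
ATP6V1A 3' UTR site: atatagtaaataTACATTctggttacacta
The part of these sites in either change was not tested.

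The contrast of SUDS3 siRNA with PHF12 siRNA tests whether the 2 siRNAs left a transcript at different levels. It is not matched for knockdown, as PHF12 stood at 53.9% and SUDS3 at 19.9% of control with their own siRNAs. Here 6 members were higher with the SUDS3 siRNA and 2 were lower, where 22.7% of all tested genes were higher and 21.1% lower. The median log2 fold change of the members was 0.14, beside -0.01 for all tested genes. ATP6V1A averaged 236.4 ± 4.22 CPM with the SUDS3 siRNA and 66.5 ± 4.12 CPM with the PHF12 siRNA (SD, n = 3 each), a log2 fold change of 1.83 (SE 0.04, edgeR adjusted p = 9.75e-29). ATP6V1B2 averaged 109.6 ± 2.01 CPM with the SUDS3 siRNA and 89.3 ± 2.46 CPM with the PHF12 siRNA, a difference of 0.30 on the log2 scale (edgeR adjusted p = 2.75e-07). Both ring subunits were thus higher with the SUDS3 siRNA, ATP6V1A by far more.

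The 2 members that were lower with the SUDS3 siRNA were ATP6V1G1 and ATP6V1D. ATP6V1G1 averaged 115.3 ± 7.13 CPM with the SUDS3 siRNA and 166.3 ± 4.71 CPM with the PHF12 siRNA (SD, n = 3 each), a log2 fold change of -0.53 (edgeR adjusted p = 2.3e-13). ATP6V1D averaged 92.9 ± 1.83 CPM with the SUDS3 siRNA and 120.7 ± 4.15 CPM with the PHF12 siRNA (-0.38, edgeR adjusted p = 5.5e-09), although it was above control in both. ATP6V1H (0.24, edgeR adjusted p = 0.000219) and ATP6V1C1 (0.18, edgeR adjusted p = 0.000409) were higher with the SUDS3 siRNA. ATP6V1F (0.11, edgeR adjusted p = 0.0158) and ATP6V1E1 (0.09, edgeR adjusted p = 0.038) passed by a small margin. The ATP6V1E1 call was lost in 11 of 20 alternative settings and the ATP6V1F call in 5, and upper-quartile scaling gave 0.03 and 0.05. Leaving out 1 library ended the ATP6V1E1 call for SUDS3 siRNA replicate 1 or 3 or any PHF12 siRNA replicate (0.06 to 0.10, edgeR adjusted p up to 0.279), and the ATP6V1F call for SUDS3 siRNA replicate 1 or 2 or PHF12 siRNA replicate 3 (0.08 to 0.10, edgeR adjusted p up to 0.149).

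Scaling bears on how rises and falls divide over all genes. With the PHF12 siRNA, the higher genes were 46.4% of those that passed under TMM scaling and 56.9% under upper-quartile scaling. Between the siRNAs these shares were 51.8% and 41.2%. Every member that passed in a contrast had the same direction under TMM, RLE and upper-quartile scaling.

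Levels of different genes are compared per length, as TPM recomputed from the counts and the total annotated exon length of each gene (transcripts per 1000000, mean ± SD of 3 libraries). In the deposited TPM the lengths implied by the ratio to the counts had a Pearson correlation across genes of -0.000 with annotated exon length (11143 genes), so that table was used only within a gene. In control cells the order was ATP6V1F at 635 ± 14.0, ATP6V1G1 at 357 ± 5.82, ATP6V1E1 at 151 ± 0.870 and ATP6V1A at 130 ± 5.16 TPM. ATP6V1C1 (59.7 ± 3.89) and ATP6V1D (54.7 ± 1.53) followed, whose libraries overlapped, then ATP6V1B2 (39.7 ± 0.477) and ATP6V1H (37.1 ± 1.28). A small rotor subunit thus had the highest transcript level in the sector and the B and H subunits the lowest. With the length of the longest transcript in place of all exons, the first 4 genes kept this order, and ATP6V1H moved to place 6, ATP6V1C1 to place 7 and ATP6V1B2 to place 8.

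Under the PHF12 siRNA the order changed in the middle. ATP6V1D, at 97.4 ± 3.35 TPM, stood in place 4 behind ATP6V1F (637), ATP6V1G1 (437) and ATP6V1E1 (169), and ATP6V1C1 followed at 71.9. ATP6V1A, at 44.5 ± 2.73 TPM, was in place 6, and its libraries overlapped those of ATP6V1H at 40.1, which overlapped those of ATP6V1B2 at 39.2. Under the SUDS3 siRNA the order by exon length was that of control cells, with ATP6V1F at 715, ATP6V1G1 at 315, ATP6V1E1 at 187, ATP6V1A at 164, ATP6V1C1 at 84.4 and ATP6V1D at 77.9 TPM. ATP6V1B2 at 49.98 and ATP6V1H at 49.0 TPM overlapped. By the longest transcript, ATP6V1H moved to place 5 and ATP6V1A to place 7 with the PHF12 siRNA, and ATP6V1E1 stood above ATP6V1G1 with the SUDS3 siRNA, unlike in controls.

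**Figure D3:**
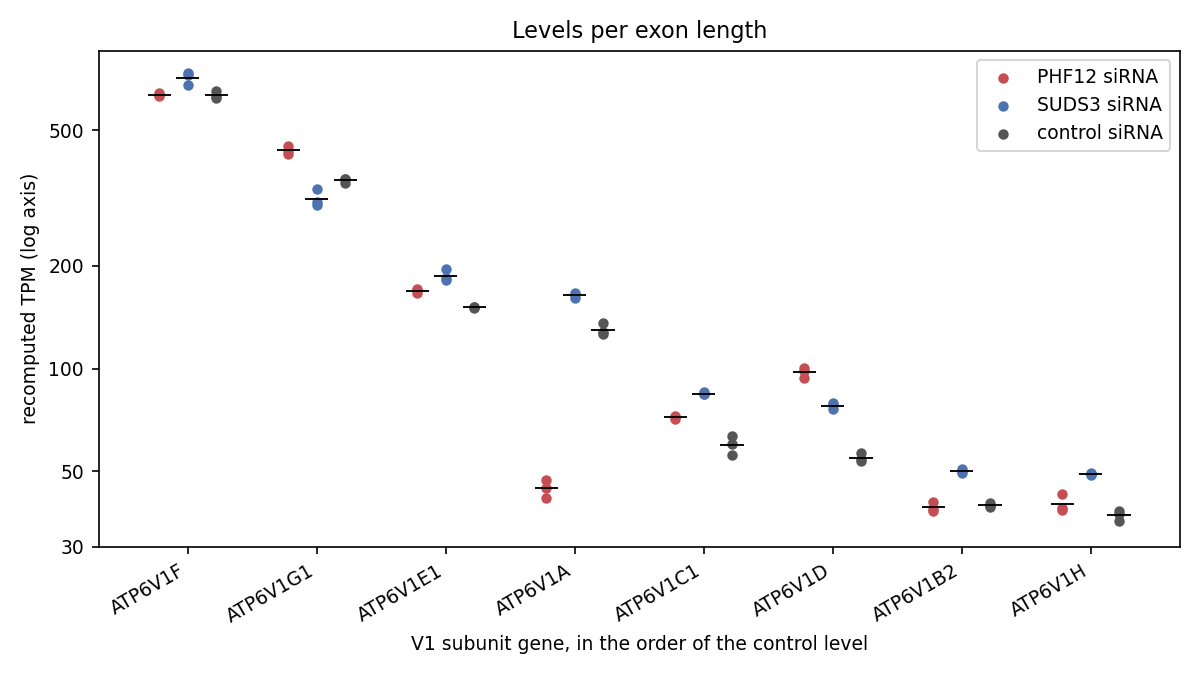
Recomputed TPM of each V1 subunit gene on a log axis, with a point per library and a line at each group mean, ordered by the control level. ATP6V1A averages 44.5 TPM with the PHF12 siRNA, 164 TPM with the SUDS3 siRNA and 130 TPM in controls, and the group means of ATP6V1B2 lie between 39.2 and 49.98 TPM.

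Because A and B occur in equal numbers in the ring, the ratio of their transcripts was computed in each library from recomputed TPM. ATP6V1A over ATP6V1B2 was 1.13 ± 0.0704 with the PHF12 siRNA, 3.28 ± 0.0335 with the SUDS3 siRNA and 3.28 ± 0.0958 in controls (SD, n = 3 each). The PHF12 siRNA libraries, between 1.09 and 1.22, were far from all others, while the SUDS3 siRNA libraries (3.25 to 3.32) lay within the range of controls (3.19 to 3.38). ATP6V1E1 over ATP6V1G1, the stalk pair, was 0.387 ± 0.0149 with the PHF12 siRNA, 0.597 ± 0.0432 with the SUDS3 siRNA and 0.424 ± 0.00808 in controls. The groups did not overlap, with the SUDS3 siRNA libraries highest and the PHF12 siRNA libraries lowest. ATP6V1D over ATP6V1F, the rotor pair, was 0.153 ± 0.00664 with the PHF12 siRNA, 0.109 ± 0.00690 with the SUDS3 siRNA and 0.0862 ± 0.00372 in controls, again without overlap. The level of a ratio depends on the lengths used. By the longest transcript, ATP6V1E1 over ATP6V1G1 was 0.733 with the PHF12 siRNA, 1.13 with the SUDS3 siRNA and 0.803 in controls, and ATP6V1D over ATP6V1F was 0.318, 0.227 and 0.179 in the same groups, each still without overlap. ATP6V1A over ATP6V1B2 was then 1.12 with the PHF12 siRNA, 3.24 with the SUDS3 siRNA and 3.24 in controls.

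**Figure D4:**
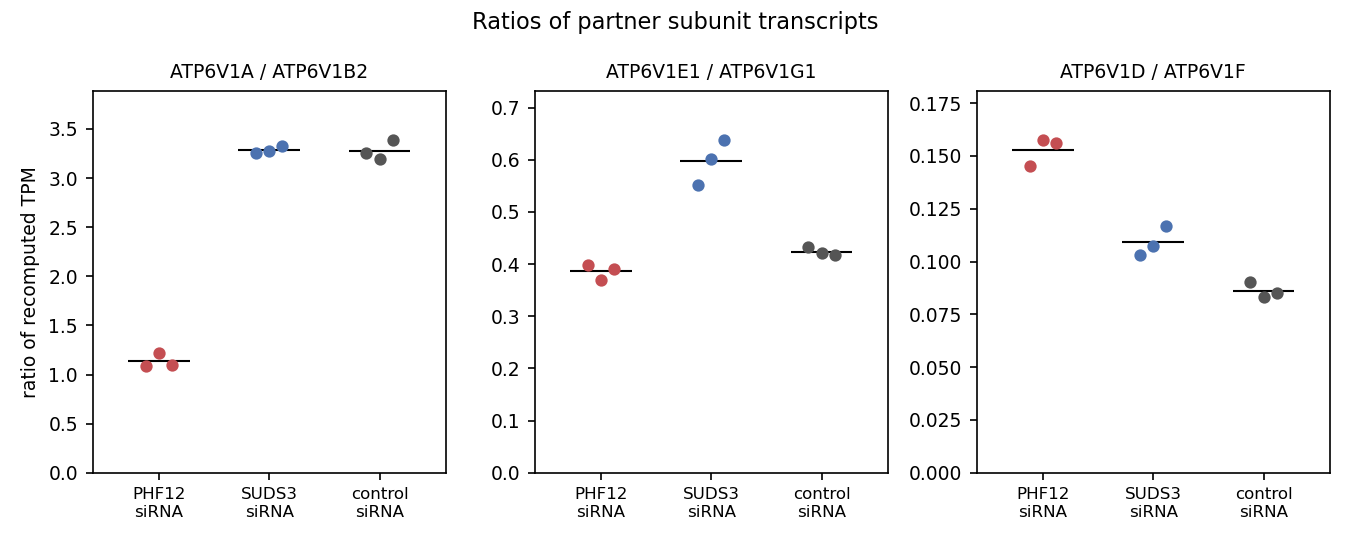
Ratios of recomputed TPM between partner subunits of the ring, the stalk and the rotor, with a point per library, a line at each group mean and axes from 0. The ratio of ATP6V1A to ATP6V1B2 is 1.13 with the PHF12 siRNA and 3.28 in both other groups.

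Summed over the 8 members, recomputed TPM was 1536 ± 13.2 with the PHF12 siRNA, 1642 ± 34.6 with the SUDS3 siRNA and 1464 ± 20.8 in controls (SD, n = 3 each). The share of ATP6V1A in this sum was 2.73% to 3.04% with the PHF12 siRNA, 9.81% to 10.3% with the SUDS3 siRNA and 8.53% to 9.24% in controls. The sum rests mostly on ATP6V1F and ATP6V1G1, the genes with the shortest exon length, and with the PHF12 siRNA it depends on that scaling. Summed CPM, which is not scaled for length, was 915.6 to 940.2 with the PHF12 siRNA, 1072 to 1105 with the SUDS3 siRNA and 923.5 to 927.3 in controls. On that scale the PHF12 siRNA libraries lay on both sides of the controls, and every SUDS3 siRNA library was higher than every control.

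The other 5 V1 genes encode isoforms known from particular tissues, such as ATP6V1B1 of kidney intercalated cells. ATP6V1G3 had 0 counts in every library, ATP6V1B1 lay between 0 and 0.366 CPM, and ATP6V1C2 (0.785 to 1.99 CPM), ATP6V1G2 (1.48 to 2.84 CPM) and ATP6V1E2 (4.13 to 6.22 CPM) were low. No library of an isoform reached the lowest member value of 53.3 CPM. Of the 4 that were tested, 0 rose or fell with the PHF12 siRNA in edgeR, and likewise 0 at an unadjusted p under 0.05 and 0 in DESeq2. With the SUDS3 siRNA ATP6V1G2, an isoform of neurons, rose by 0.66 (edgeR adjusted p = 0.034) and ATP6V1C2 had a log2 fold change of -0.95 (edgeR adjusted p = 0.0157). These are small counts, with totals over the 9 libraries of 852 for ATP6V1G2 and 524 for ATP6V1C2.

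The members ATP6V1B2 (ENSG00000147416), ATP6V1C1 (ENSG00000155097) and ATP6V1H (ENSG00000047249), lie on chromosome 8 of GRCh38, at 20197367 to 20226819, 103021063 to 103073051 and 53715557 to 53843558. ATP6V1F (ENSG00000128524) lies on chromosome 7 at 128862826 to 128865844. Its exons share 187 of 789 bases with KCP on the opposite strand, which stood at 0.490 to 1.10 CPM in all libraries. ATP6V1A and ATP6V1C1 share 109 of 5130 and 39 of 5851 bases with antisense transcripts that had at most 4 counts in any library. Pseudogenes named after ATP6V1E1 and ATP6V1G1 are annotated, and reads shared with them cannot be told apart here.

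For the lists that follow, the shares of all tested genes that rose and fell were 14.8% and 17.1% with the PHF12 siRNA, beside 19.6% and 19.2% with the SUDS3 siRNA. Among V0 membrane and accessory subunits, which form the proton channel, 12 of 13 were tested, and 2 rose, 3 fell and 7 did not pass with the PHF12 siRNA (median log2 fold change 0.05). With the SUDS3 siRNA 5 rose, 2 fell and 5 did not pass (median 0.14). ATP6V0C (0 to 0.367 CPM) and ATP6V0D2 (0 to 0.640 CPM) were tested and did not pass with either siRNA. Both lay near 0 counts, so a change in them could hardly be measured. In the same sector ATP6V0B lay at 128.6 to 155.4 CPM and ATP6V0D1 at 84.6 to 122.9 CPM. Whether the low count of ATP6V0C reflects its transcript level or the way reads were counted was not tested. ATP6V0D1, which sits under the rotor and takes up its turning, rose by 0.26 with the PHF12 siRNA and by 0.44 with the SUDS3 siRNA (edgeR adjusted p = 9.05e-06 and 2.08e-10). ATP6V0E1, a small membrane subunit, stood at 71.4, 69.2 and 66.0 CPM with the PHF12 siRNA, at 119.0, 110.4 and 114.8 CPM with the SUDS3 siRNA and at 82.9, 91.0 and 87.3 CPM in controls. It fell with the first siRNA (-0.34, edgeR adjusted p = 4.28e-07) and rose with the second (0.40, edgeR adjusted p = 1.09e-08), and no library of 1 group overlapped another group. The a subunit isoform TCIRG1 had -0.72 with the SUDS3 siRNA (edgeR adjusted p = 0.000242), at a level of 3.58 to 5.17 CPM there.

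Of 3 factors that assemble V0, TMEM199 rose with the PHF12 siRNA (0.22) and the other 2 did not pass. With the SUDS3 siRNA CCDC115 (0.55) and TMEM199 (0.29) rose and VMA21 (-0.16) fell. Of 8 tested regulators of the joining of V1 and V0, in the RAVE complex and the TLDc domain family, 1 fell with the PHF12 siRNA, WDR7 (-0.43), and 7 did not pass. With the SUDS3 siRNA ROGDI (0.41) and TLDC1 (0.32) rose, NCOA7 (-0.44) and WDR7 (-0.28) fell and 4 did not pass.

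In amino acid sensing at the lysosome, 10 genes were listed, those of Ragulator, the Rag GTPases and SLC38A9, which is neither. With the PHF12 siRNA 2 rose, 5 fell and 3 did not pass (median -0.16). With the SUDS3 siRNA 5 rose, 0 fell in edgeR and 5 did not pass (median 0.20). There, 1 fell at an unadjusted p under 0.05 and 0 in DESeq2. SLC38A9 fell with the PHF12 siRNA (-0.17, edgeR adjusted p = 0.0332) and rose with the SUDS3 siRNA (0.20, edgeR adjusted p = 0.00747). LAMTOR3, a Ragulator subunit, stood at 25.9, 24.5 and 25.4 CPM with the PHF12 siRNA, at 55.6, 54.5 and 53.9 CPM with the SUDS3 siRNA and at 41.3, 50.3 and 47.0 CPM in controls. Its log2 fold change over control was -0.87 with the PHF12 siRNA (edgeR adjusted p = 2.32e-13) and 0.24 with the SUDS3 siRNA (edgeR adjusted p = 0.00217). LAMTOR1, which anchors Ragulator to the membrane, fell with the PHF12 siRNA (-0.76, edgeR adjusted p = 2.25e-14), and RRAGD rose with the SUDS3 siRNA (0.74, edgeR adjusted p = 1.45e-11). In the direct contrast of SUDS3 siRNA with PHF12 siRNA, 6 of the 10 were higher, 0 lower in edgeR (1 at an unadjusted p under 0.05 and 1 in DESeq2) and 4 did not pass. Of all tested genes 22.7% were higher and 21.1% lower in that contrast.

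Of the MiT-TFE transcription factors 3 of 4 were tested. TFEB stood at 4.99, 4.67 and 5.74 CPM with the PHF12 siRNA, at 11.1, 9.68 and 8.53 CPM with the SUDS3 siRNA and at 6.12, 6.14 and 5.49 CPM in controls. It rose with the SUDS3 siRNA (0.72, edgeR adjusted p = 5.89e-05), as did MITF (0.45), and did not pass with the PHF12 siRNA (-0.21, edgeR adjusted p = 0.298), with which TFE3 fell (-0.32). Among 10 chloride and proton exchangers and other partners in setting the pH of endosomes and lysosomes, 2 rose, 2 fell and 6 did not pass with the PHF12 siRNA. With the SUDS3 siRNA 5 rose, 0 fell in edgeR (0 at an unadjusted p under 0.05 and 0 in DESeq2) and 5 did not pass. CLCN4, which did not pass with either siRNA, lay between 0 and 0.316 CPM. OSTM1, the partner subunit of the lysosomal chloride exchanger, stood at 10.8, 12.3 and 12.5 CPM with the PHF12 siRNA, at 37.5, 32.4 and 38.1 CPM with the SUDS3 siRNA and at 37.8, 38.5 and 36.4 CPM in controls. Like ATP6V1A it fell with the PHF12 siRNA, by 1.67 on the log2 scale (edgeR adjusted p = 6.07e-19). MCOLN1, a lysosomal cation channel, rose with the SUDS3 siRNA (0.68, edgeR adjusted p = 1.08e-07).

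**Figure D5:**
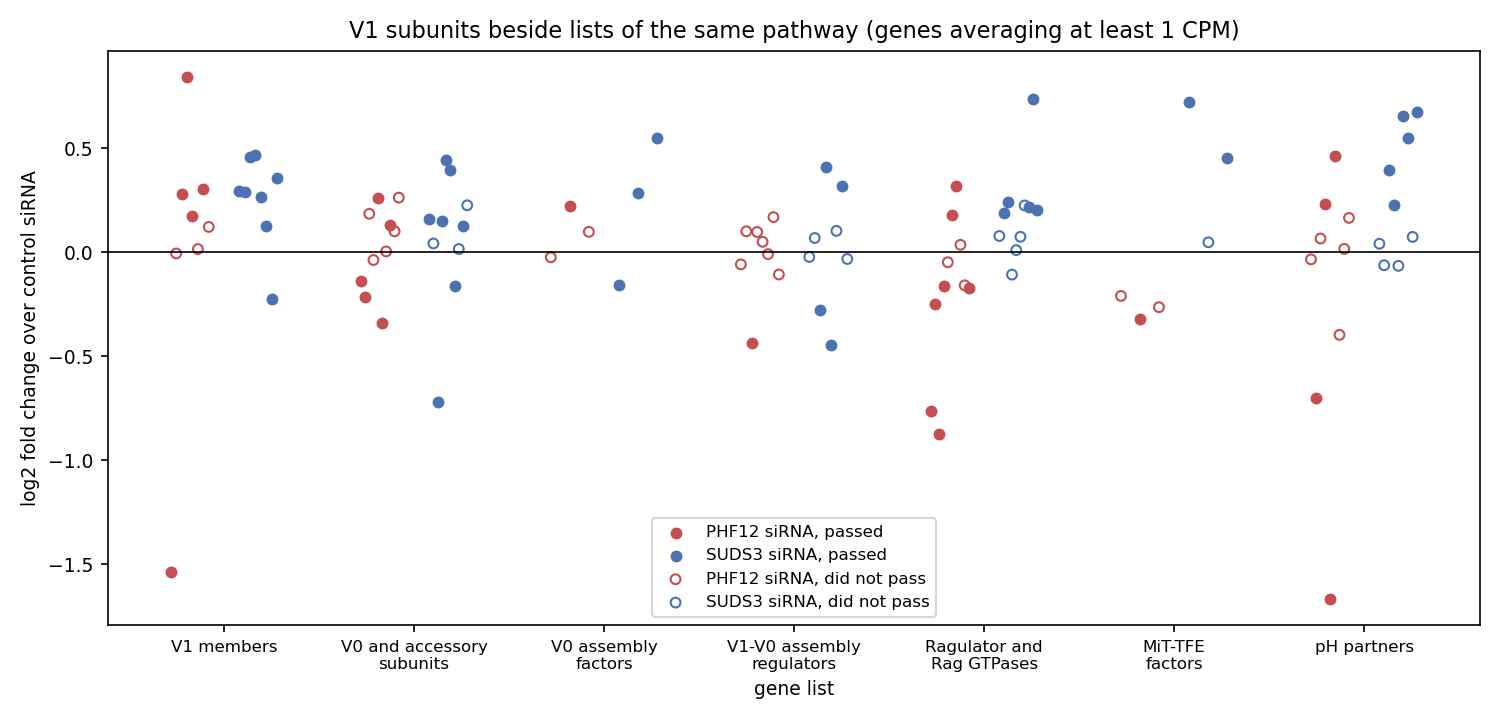
Log2 fold change over control siRNA of the V1 members and of genes in 6 related lists that average at least 1 CPM, with filled points for genes that passed. Ragulator and Rag genes lie between -0.87 and 0.32 with the PHF12 siRNA and between -0.11 and 0.74 with the SUDS3 siRNA.

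Among 9965 other protein-coding genes of sufficient level, those whose log2 CPM over the 9 libraries was most like the mean of the members were NDE1 (Pearson r = 0.998), HADHB (0.993), STAMBP (0.992), RIC1 (0.990) and FBXO33 (0.989). That mean joins members with unlike patterns. Between members, r ran from -0.93 for ATP6V1A with ATP6V1G1 to 0.93 for ATP6V1C1 with ATP6V1E1. Closest to ATP6V1A were CAPN7 (0.998), EIF4EBP2 (0.997) and INAFM2 (0.997), closest to ATP6V1D were CA2 (0.995), KIF5A (0.988) and CCNK (0.986), and closest to ATP6V1G1 were RPL38 (0.992), FOXC1 (0.991) and KRT8 (0.985). CAPN7 had a log2 fold change of -0.80 over control with the PHF12 siRNA, beside 0.22 with the SUDS3 siRNA, and KRT8 had 0.83 beside -0.61. The 9 libraries fall into 3 groups, so these correlations describe little beyond the group means.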

How the data were processed

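Counts per gene were deposited by the authors as whole numbers, and TPM in a second table. Per the submitters' processing notes the tools were Trimmomatic 0.36, HISAT2 2.1.0 and HTSeq with build GRCh38. No source used here gives the strand setting of the counting. Of the counts above 0, 96.1% are multiples of 4, so 1 fragment may stand for 4 counts. All 58735 identifiers matched GENCODE 29, which gave symbols, exon lengths and 3' UTRs. Promoter windows are from RefSeq on GRCh38.p14.

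All 9 libraries entered 1 fit of the counts in edgeR 4.0.16 (R 4.3.3): TMM scaling, filterByExpr at a minimum count of 10, a robust quasi-likelihood model with a mean per group, F-tests of 3 contrasts, and Benjamini-Hochberg adjustment over all 18088 tested genes. Genes with an adjusted p under 0.05 passed. SE and 95% intervals come from the F-statistic. For levels between genes, TPM was recomputed from the deposited counts and exon length, in place of the deposited TPM first planned.

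The members and lists were chosen with earlier results of these data known. Named genes are the 8 members, the other V1 isoforms, both targets, up to 3 genes with the smallest p among those that passed in each list and contrast, and the genes most like the members (5 for their mean, 3 for each); further genes of lists or overlaps were chosen after their values were seen. Some genes under this rule are not reported here. Alternatives were other scaling (RLE, upper quartile), DESeq2 1.42.0, limma 3.58.1 on log2 of the deposited TPM plus 1 or 0.1, other filters, counts divided by 4, only the groups compared, a replicate block and each library left out.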

Additional observations from a re-analysis of the deposited data

How the results depend on the processing

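Over 20 alternatives, the number of V1 members that rose or fell in a contrast stayed within 1.5 times its value, and 18 of the 21 calls of a member kept their direction and passed in all 20. The exceptions are ATP6V1F with the SUDS3 siRNA, and ATP6V1E1 and ATP6V1F between the siRNAs. ATP6V1B2 with the PHF12 siRNA, which did not pass in any setting (adjusted p of 0.616 or more), turned from -0.00 to a positive log2 fold change in 12: 0.0066 with RLE, 0.033 with upper-quartile scaling, 0.0064 in DESeq2, 0.0015 without a filter, 0.00052 with a minimum count of 40, 0.0034 with only the groups compared, 0.00017 in all 3 limma fits, and between -0.027 and 0.0106 over the fits without 1 library, 3 of them positive. The cause was not tested. ATP6V1H with the PHF12 siRNA passed in 5 settings (log2 fold change up to 0.16, adjusted p = 0.014 with upper-quartile scaling). Other lengths, chosen after seeing the data, moved the ratios of partner transcripts and the summed level: by the longest transcript the sum with the PHF12 siRNA was 1.08 times that of controls and by CPM 1.01 times, against 1.05 times by all exons.

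The labels number replicates 1 to 3 in each group. Deviations of same-numbered libraries from their group means were almost uncorrelated (-0.0158 to 0.0304). Of 9 libraries, 5 correlated best with their own number, and no chance level was set beside that count. With the replicate block, 5848, 7073 and 7981 genes passed in the 3 contrasts, against 5776, 7004 and 7937 without it, and the same numbers of members rose and fell. Each member had at least 2096 counts in every library, which may stand for fewer fragments, while isoforms near 0 counts could not be compared at this depth.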
